A study of Mus musculus with 9 samples.

Results

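The cytosolic ribosomal protein genes were examined in iNKT1 cells, the T-bet expressing subset of invariant natural killer T cells, taken from 3 mouse tissues, the thymus, the liver and the spleen. Members were the genes whose mouse symbol is Rpl or Rps followed by a digit, together with Rplp0, Rplp1, Rplp2 and Rpsa. Kinases of the Rps6k family and symbols with the pseudogene suffix -ps were left out. The rule found 85 of the 14004 genes in the table, and it used names only, not measured values. They were 42 large subunit genes, 31 small subunit genes, 3 genes of the ribosomal stalk, 8 copies that resemble another member, and Rps19bp1, which encodes a protein that binds RPS19. Rpl24 was not analysed here. Not all of the copies are protein-coding in the annotation, where Rpl37rt is a transcribed processed pseudogene and Rps3a2 and Rps3a3 are processed pseudogenes.

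RNA-seq had been run on 9 libraries, 3 for each tissue, and the tissue was the sole difference between the groups in the labels. The mice of all 3 groups were C57BL/6, were untreated, and had the genotype Tbx21CreTg;Rosa26-LSL-YFP+/+. In that genotype Cre recombinase is driven by Tbx21, the gene of T-bet, and it removes a stop cassette before a YFP reporter, so a cell keeps the reporter once it has expressed the Cre. The labels give no age, sex or batch, and the way the cells were sorted is not given in the sources used here. The series describes the replicates as independent without naming animals, so the spread between libraries may be in part technical.

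The cytosolic ribosome has a small subunit, which holds and decodes the messenger RNA, and a large subunit, which joins the amino acids. Each subunit is built on ribosomal RNA, and nearly all of its proteins are present in a single copy, so the proteins are needed in near equal numbers. Their messenger RNAs typically begin with a cytosine followed by a run of pyrimidines, the 5′ terminal oligopyrimidine (TOP) motif, through which mTOR signalling and the RNA-binding protein LARP1 set how well they are translated. That control acts on translation, which the level of a messenger RNA does not show.

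Start sites are shown first because the TOP motif is the sequence feature that these messages are known to share. A start site from RefSeq (build GRCm38.p6, the assembly also called mm10) was matched by symbol for 63 of the 85 members. The windows below hold 12 bases before the annotated start and 18 from it on, 5′ to 3′ on the strand of the gene. Capitals mark the longest run of C and T that begins with a C within 10 bases of the start, where it has at least 5 letters. Each of the 8 members shown is described by its values further on, and where a gene has more than 1 annotated start the window with the longer run was taken.
Rps27 (chr3:90213631-90213660, minus strand): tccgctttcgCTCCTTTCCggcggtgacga
Rps27rt (chr9:114982722-114982751, minus strand): acttatcccttgCTTTCCggcggtgacgac
Rpl15 (chr14:18270969-18270998, minus strand): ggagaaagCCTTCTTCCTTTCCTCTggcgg
Rplp2 (chr7:141447639-141447668, plus strand): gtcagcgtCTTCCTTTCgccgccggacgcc
Rps21 (chr2:180257367-180257396, plus strand): cgaggacccgCCCTCCTgcccaatagtgct
Rps12 (chr10:23787192-23787221, minus strand): cgtcatgcggccaccgccggCCTTTTCCCC
Rps3 (chr7:99483692-99483721, minus strand): gcaagggtcgccgcgctgcgcggcgtcatt
Rpl4 (chr9:64173375-64173404, plus strand): cttttcctgtgggagcagccgggtagagag

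A C followed by at least 4 letters of C or T stood exactly at the annotated start in 14 of the 63 members (22.2%), against 2.84% of 9453 other genes of the table. A run of at least 8 letters within 10 bases of the start was found in 24 members (38.1%), against 10.2% of the other genes. The run lay at the start or around it in Rps27, Rps27rt, Rpl15, Rplp2 and Rps21, and began 8 bases into the transcript in Rps12. In Rps3 and Rpl4 no run of at least 5 letters began within 10 bases of the RefSeq start. The Rpl4 window does open with a run of C and T from its first base, 12 bases before the RefSeq start and outside that reach. That base, 64173375, is where the GENCODE annotation starts Rpl4, so for this gene the result depends on the annotation. A match describes letters at an annotated position and is not a measured transcript start. Members with and without a run of at least 8 letters had median log2 fold changes of 0.07 and 0.06 between liver and spleen, of -0.03 and -0.25 between liver and thymus, and of 0.05 and -0.20 between spleen and thymus.

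Values are the authors' normalised read counts, here also called values. The reads behind them, recovered from the spacing of low values, came to 18506598 to 27706136 in the thymus libraries, 32483307 to 39568081 in the spleen libraries, and 31579294, 27679293 and 3878120 in liver replicates 1, 2 and 3. All 85 members passed the filter on low values, and the lowest had at least 5 reads in every library. All 10 listed iNKT1 markers, among them Cd3e, Tbx21 and Zbtb16, were measured in every library, with summed values of 101669 to 177432. Of 8 listed hepatocyte markers 6 were in the table, with sums of 1390 to 1717 in liver, 109.9 to 868 in thymus and 0.525 to 40.5 in spleen. Albumin (Alb) supplied most of the liver sums and was listed at 0 in spleen replicates 2 and 3. In thymus most of each sum was Trf, with 598 of 868 in replicate 2. The B cell list (6 of 7 genes) summed to 5265 to 14717 in spleen, 5780 to 8687 in liver and 3157 to 5353 in thymus. Ighm, the immunoglobulin heavy chain gene, supplied most of each sum, from 9002 of 14717 in spleen replicate 1 to 5260 of 5265 in spleen replicate 2. In spleen replicate 2, Cd79a, Cd79b and Ms4a1 were listed at 0, and the same 3 genes were each below 1 in the thymus libraries. The erythroid list (5 of 7) stayed at or below 606. The myeloid list (6 of 7) summed to 3059, 56.9 and 126 in spleen replicates 1, 2 and 3. It summed to 1301, 25.6 and 542 in liver replicates 1, 2 and 3, and to 92.3 to 315 in thymus. The immature thymocyte list (6 of 8) lay between 1878 and 10287, most of it Cd4, which mature T cells also express (985 of 1878 in thymus replicate 3). In that library the list also held Rag1 at 486, Cd8a at 257 and Dntt at 11.3. Rag1 was below 1 in every other library, while Cd8a was higher in liver replicate 1, at 1116. The libraries numbered 2 had high Xist, the non-coding RNA of the inactive X chromosome, with 96505 in the thymus, 84543 in the liver and 107736 in the spleen. Thymus replicate 3 stood at 16531, and the other 5 libraries at 125 or less. What part any of these differences had in the results below was not tested.

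The share of the transcriptome taken by the ribosomal protein genes did not separate the tissues. Their summed value was 2.46%, 4.02% and 3.32% of the non-mitochondrial total in thymus replicates 1, 2 and 3, 2.74%, 3.14% and 3.82% in the liver, and 3.16%, 2.81% and 3.15% in the spleen. The means were 3.27% ± 0.781 (SD, n = 3) in thymus, 3.23% ± 0.546 in liver and 3.04% ± 0.199 in spleen, and the values of each pair of tissues overlapped. Thymus held both the lowest and the highest library. In bulk samples such as these, fewer cells of a type and less RNA per cell cannot be told apart.

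The balance of the subunits was also compared, with the stalk genes counted in the large subunit sum. The summed large subunit value divided by the summed small subunit value was 1.60, 1.14 and 1.53 in the thymus libraries, 1.63, 1.54 and 1.52 in the liver libraries, and 1.40, 1.32 and 1.45 in the spleen libraries. Every liver library thus lay above every spleen library, with means of 1.56 ± 0.0586 and 1.39 ± 0.0656 (SD, n = 3 each). That separation rested on the most abundant genes. Without the 3 members of highest mean value, Rpl4, Rps3 and Rps27, the ratio was 1.67, 1.58 and 1.57 in liver and 1.5, 1.58 and 1.63 in spleen, which overlap. Thymus replicate 2 had the lowest ratio in both versions, 1.14 and 1.31.

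**Figure D1:**
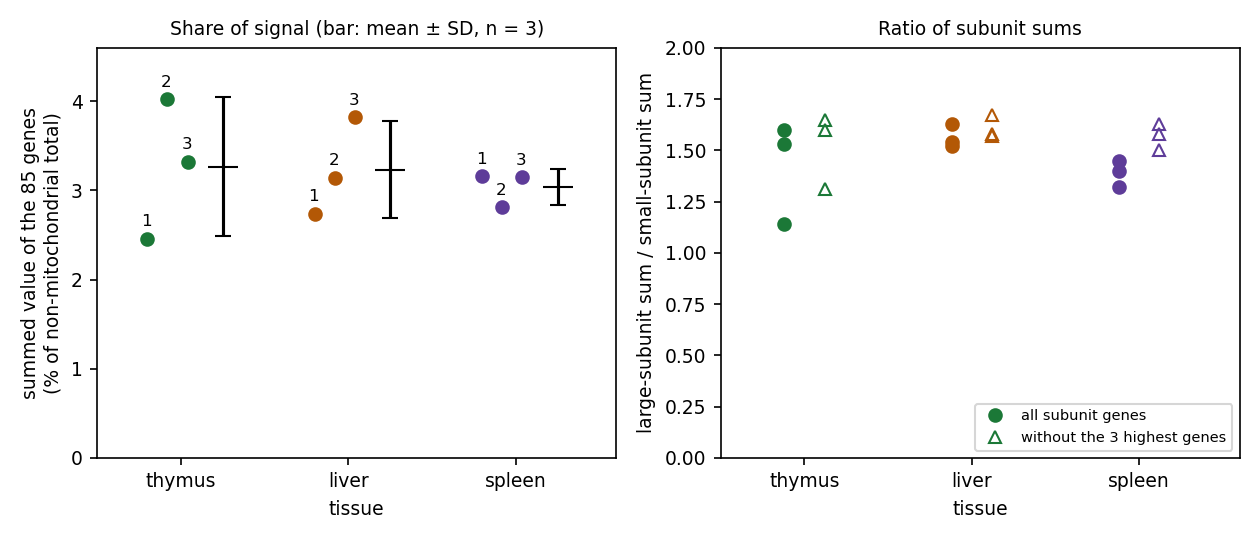
Left, summed value of the 85 ribosomal protein genes as a percentage of the non-mitochondrial total in each library, by tissue, with the replicate number at each point and the mean ± SD (n = 3) beside it. Right, ratio of the large to the small subunit sum in each library, with the stalk genes in the large sum. Filled circles hold all subunit genes and open triangles leave out the 3 highest. Liver and spleen separate with all genes (1.52 to 1.63 against 1.32 to 1.45) and overlap without the 3.

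Levels of different genes were compared per 1000 bases of transcript. On that scale the mean over the 9 libraries was highest for Rps27, a zinc-finger protein of the small subunit, at 45718, followed by Rpl32 at 26325, Rplp2 at 23977 and Rpl4 at 22621. The lowest canonical subunit genes were Rpl35 at 1593 and Rpl23a at 1800 (Rpl32, Rpl35 and Rpl23a were chosen after their values were seen). The scale uses 1 annotated transcript per gene, and the ranks depend on its length. It was 946 bases for Rpl35, of which 369 are coding, and 560 for Rpl23a, of which 468 are coding. The copies ran from 20.3 for Rps3a3 to 3890 for Rpl36al and overlapped the lowest canonical genes, and Rps19bp1 lay at 236. The levels of near-identical genes are uncertain, since 40 of the 85 members share at least 50% of their 75-base stretches with transcripts of other annotated genes. Rps27 shared 98.5% of its stretches, Rpl4 8.47%, and Rps3 and Rps19bp1 none. Reads assigned to the 74 ribosomal genes with the -ps suffix amounted to 0.919%, 1.95% and 1.10% of the member sum in the thymus libraries, 1.13%, 0.871% and 1.08% in liver, and 1.63%, 1.58% and 1.40% in spleen.

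Between spleen and thymus a single member differed, the large subunit gene Rpl4, which was lower in spleen. Rpl4 lies on chromosome 9 (64173375 to 64178666, plus strand, GRCm38) and encodes a protein whose long loop lines the tunnel through which the new polypeptide leaves the ribosome. Its value was 41867, 45209 and 47197 in thymus replicates 1, 2 and 3, 36943, 32308 and 34297 in liver, and 24338, 24587 and 26381 in spleen. The 3 tissues did not overlap in any pair, with thymus highest and spleen lowest. The mean fell from 44758 ± 2693 (SD, n = 3) in thymus to 25102 ± 1115 in spleen, 0.56 times the thymus level. On the log2(value + 1) scale this was -0.83 (SE 0.15, limma-trend with Benjamini-Hochberg adjustment over 13309 genes, adjusted p = 0.0218). The gene also hosts 5 small nucleolar RNA genes, 1 of them inside an annotated exon, whose reads a count by exon would include. Rpl4 was the member with the highest mean value and the smallest spread within tissues, an SD of 0.08 on the log2(value + 1) scale.

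The count of 1 called member of 85 stood beside 0.398% of all genes called in the same comparison, and 0.210% called lower. With an unadjusted p under 0.05 there were 8 members including Rpl4, all lower in spleen, beside 11.7% of all genes. DESeq2 on the recovered reads also called Rpl4 alone, while edgeR called none. The Rpl4 fold change kept its sign in all 21 alternatives (-1.14 to -0.67) and passed the threshold in 11 of them, with an adjusted p from 0.00192 to 0.321. It did not pass with edgeR (0.0897), with equal totals outside the mitochondrial genes (0.0940), over spleen and thymus alone (0.137), or over the libraries numbered 1 and 3 (0.321). Leaving out any 1 liver or spleen library also ended the call, with an adjusted p of 0.0506, 0.0581 and 0.0503 without liver replicates 1, 2 and 3, and 0.112, 0.135 and 0.114 without spleen replicates 1, 2 and 3. A test for any difference among the tissues (F-test) called no member with limma-trend (6 with an unadjusted p under 0.05), beside 0.346% of all genes (9.95% unadjusted), and Rpl4 had an adjusted p of 0.0610 in it. Against thymus, liver Rpl4 had a log2 fold change of -0.38 (adjusted p = 0.357), and between liver and spleen it was 0.46 (adjusted p = 1.0, limma-trend).

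For 9 members every spleen value lay below every thymus value, and for none did every spleen value lie above. The 9 were Rpl4, Rpl7, Rpl8, Rpl13, Rplp2, Rps3a1, Rps15a, Rps16 and Rpsa, or 10.6% of the members, against a non-overlapping share of 15.3% among all genes tested (9.29% higher and 6.03% lower). Leaving out any 1 thymus or spleen library gave 11 to 30 members, beside 22.5% to 30.3% of all genes. Rpsa encodes the small subunit protein that was also described as a laminin receptor. It was at 10122, 18651 and 13249 in thymus, 8961, 11292 and 11883 in liver, and 9247, 7844 and 7650 in spleen. All 3 thymus values were above the spleen values, and the liver values overlapped both (spleen vs thymus log2 fold change -0.72, SE 0.26, limma-trend adjusted p = 0.282). At the other end were, among others, Rpl27 with a log2 fold change of 0.97 (SE 0.55), Rpl7l1 with 0.75 (SE 1.06) and Rps12 with 0.47 (SE 0.61), none past the threshold. Each of these 3 had its lowest value in thymus replicate 1. Without that library the fold changes of Rpl27, Rpl7l1 and Rps12 were 0.29, -0.34 and -0.35.

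Between liver and thymus no member passed the threshold with limma-trend, where 0.323% of all genes did (0.203% higher and 0.120% lower in liver). Without adjustment 8 members had a p under 0.05, with 1 higher and 7 lower in liver, beside 11.6% of all genes. With edgeR and with DESeq2 the count was 0 as well. This comparison and the one of spleen with thymus share the thymus libraries. Without overlap, 2 members were higher in liver (Rpl10a and Rpl6) and 9 lower (Rpl4, Rpl22, Rpl34, Rpl37a, Rpl37rt, Rps20, Rps27, Rps27rt and Rps29), 12.9% of the members against 15.3% of all genes (9.61% higher and 5.73% lower). Leaving out any 1 thymus or liver library gave 12 to 25 members, beside 21.1% to 30.9% of all genes.

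Rpl10a, the protein of the L1 stalk that guides used transfer RNA out of the ribosome, had the highest fold change. Its value was 4994, 9202 and 9812 in thymus, 10677, 12788 and 15958 in liver, and 9051, 5815 and 8443 in spleen. Every liver library lay above the other 6, while thymus and spleen overlapped (liver vs thymus 0.76, SE 0.30, limma-trend adjusted p = 0.345). Rpl6, another large subunit gene, was at 6153, 6294 and 6504 in liver, 3638, 2953 and 5484 in thymus, and 6417, 3413 and 3686 in spleen, so that spleen replicate 1 reached the liver level and the others did not (liver vs thymus 0.70, SE 0.33, adjusted p = 0.434).

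Among the members lower in liver, Rps27 had 11452, 9264 and 11732 in liver, 14232, 30594 and 16847 in thymus, and 13382, 18955 and 15497 in spleen. All 3 liver values were below the other 6. From thymus to liver it differed by -0.85 on the log2 scale (SE 0.27), and its adjusted p of 0.242 was the smallest of the members in this comparison. Rps27rt, a retrotransposed copy that shares 90.3% of its 75-base stretches with other genes, including Rps27, had -1.09 (SE 0.76). The reads of the pair cannot be told apart over most of their length. Rpl34, a large subunit gene, was at 1486, 1685 and 1945 in liver, 2538, 5420 and 2506 in thymus, and 3548, 2611 and 2561 in spleen, again with the 3 liver values lowest (-0.94 from thymus, SE 0.40, adjusted p = 0.380).

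Over all 85 members the median log2 fold change was -0.14 for liver vs thymus and -0.12 for spleen vs thymus, where the medians over all genes tested were 0.29 and 0.33. Below 0 were 56 and 50 of the 85 members. The 3809 other genes with a mean value of at least 1000 had medians of -0.07 and -0.05, much nearer to those of the members. The distance of the members from all genes, -0.43 and -0.44, depended on the model as well as on which genes stood for comparison. It was -0.46 and -0.47 when the libraries were rescaled with TMM factors, which moved the median of all genes to 0.04 in both comparisons. On the recovered reads it was -0.16 and -0.18 with edgeR and -0.21 and -0.23 with DESeq2. With limma-trend, most of the distance was absent without thymus replicate 2, where the member medians were 0.09 and 0.13 against 0.23 and 0.28 for all genes, a distance of -0.14 in both.

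Between liver and spleen no member passed the threshold with limma-trend, in a comparison that called 0.0150% of all genes. Without adjustment 9 members had a p under 0.05, 5 higher and 4 lower in liver, beside 3.03% of all genes, and edgeR and DESeq2 called 0. Values nevertheless separated more often than among all genes tested: 20 members did not overlap, 23.5% against 12.7% of all genes. In 7 the liver was higher (5.97% of all genes) and in 13 the spleen (6.77% of all genes). That difference in share was not tested. Members also spread less within tissues, with a median SD of 0.40 against 1.31 for all genes tested. The share among other genes of similar level is not given here. Leaving out any 1 liver or spleen library gave 25 to 40 members, beside 21.6% to 23.8% of all genes; without liver replicate 1 it was 40, with 26 higher in liver. Higher in liver were Rpl4, Rpl10a, Rpl13, Rpl15, Rpl19, Rps3a1 and Rps15a. Among those higher in spleen were Rpl14, Rpl34, Rpl36, Rpl36al, Rpl37, Rpl37rt, Rpl38, Rpl41, Rps21, Rps27, Rps27rt and Rps29.

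Rpl10a and Rpl15 led the first set, with log2 fold changes of 0.76 (SE 0.30) and 0.72 (SE 0.33). Rpl15, a large subunit protein needed for its assembly, was at 4696, 5746 and 6541 in liver and 3864, 2836 and 3621 in spleen. In thymus it was at 5351, 3078 and 5708, which overlapped both. Rpl10, which completes the large subunit late in its maturation, had 0.60 (SE 0.27), with values of 15652, 14096 and 19949 in liver that overlapped the 11892, 7318 and 14476 of spleen.

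Rps21, of the small subunit, was among the canonical genes with the largest differences in the second set. It was at 1870, 2467 and 4143 in liver and 4950, 5273 and 5976 in spleen. In thymus it was at 2595, 9057 and 2625, with replicates 1 and 3 at the liver level and replicate 2 above all others (liver vs spleen -1.01, SE 0.46, limma-trend adjusted p = 1.0). Rps29 was chosen after its values were seen, as the gene with the most even spleen level. It had 5931, 5935 and 5920 there against 4104, 2975 and 3719 in liver.

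**Figure D2:**
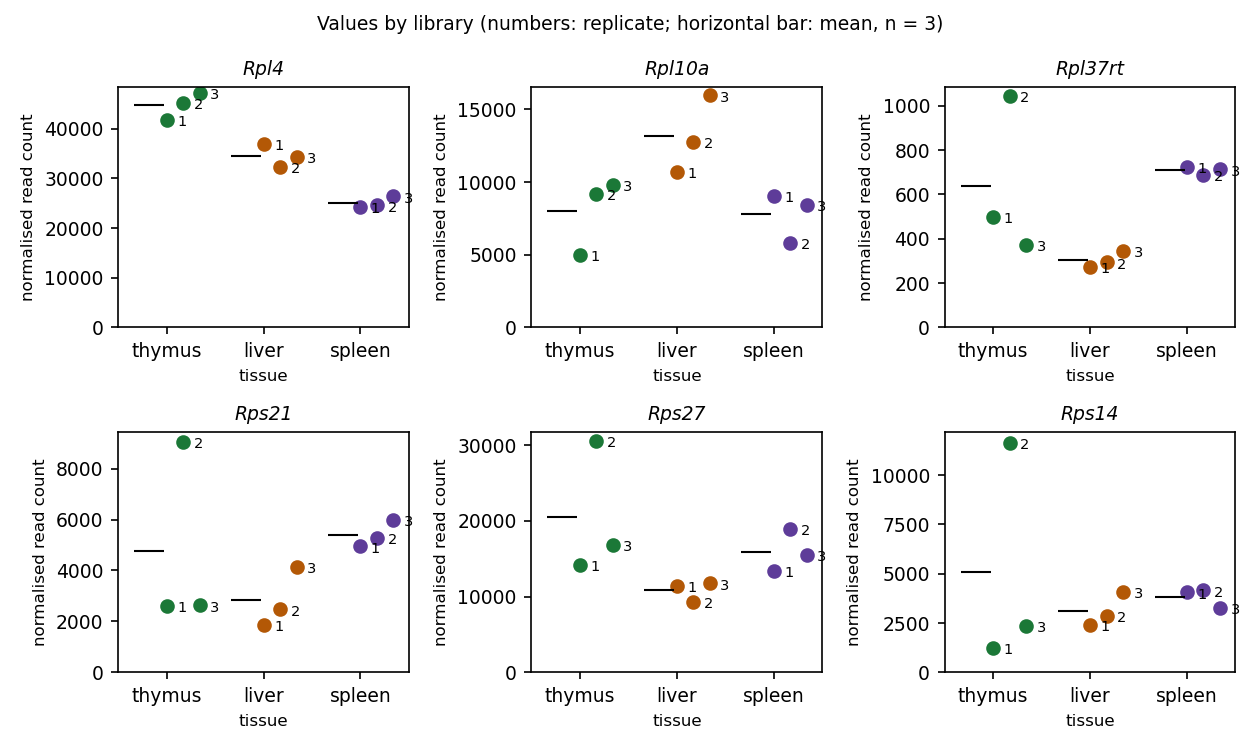
Normalised read count of 6 members in each of the 9 libraries, by tissue, with the replicate number at each point and the tissue mean as a horizontal bar; each vertical axis starts at 0. Rpl4 separates all 3 tissues, Rpl10a is highest in the liver libraries, Rpl37rt, Rps21 and Rps27 are lower in liver than in spleen, and thymus replicate 2 stands above all other libraries for Rpl37rt, Rps21, Rps27 and Rps14.

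The members higher in spleen had shorter coding sequences than those higher in liver. Coding length ran from 75 to 651 bases with a median of 272 in the 10 canonical genes higher in spleen without overlap, from 390 to 1257 bases with a median of 633 in the 7 higher in liver, and had a median of 456 in the other 59. Over all 76 canonical subunit and stalk genes the liver vs spleen fold change and coding length had a Spearman correlation of 0.56 and, with log length, a Pearson correlation of 0.50. These values describe genes that share the same 6 libraries. The 38 genes of less than 454 bases had a median log2 fold change of -0.18, and the 38 longer ones 0.24. Among 1216 other genes with a mean value of at least 1000 and a coding length in the same range, the Spearman correlation was 0.00.

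The relation was also described library by library, with deviations that restate the fold changes above and are no separate support. The correlation of coding length with the deviation of each gene from its mean over the 9 libraries was 0.10, 0.58 and 0.42 in liver replicates 1, 2 and 3, -0.22, -0.37 and -0.54 in spleen, and 0.03, -0.22 and 0.17 in thymus. All 3 liver values were above 0 and all 3 spleen values below, with liver replicate 1 close to 0. With any 1 liver or spleen library left out the correlation of the fold change stayed between 0.46 and 0.62. It was 0.32 for liver vs thymus and -0.26 for spleen vs thymus. Rpl14 departed from the trend, as a gene of 651 bases that was higher in spleen. 

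**Figure D3:**
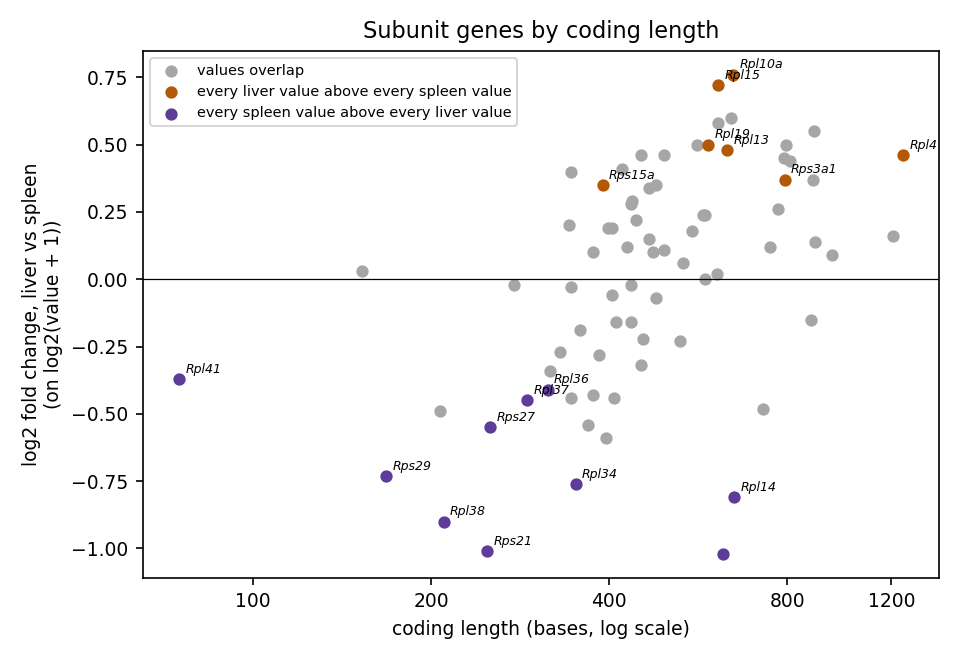
Log2 fold change of liver vs spleen on log2(value + 1) against coding length (log axis) for the 76 canonical subunit and stalk genes. Orange points are the 7 genes whose liver values all lie above the spleen values and purple points the 10 with the opposite order; most short genes lie below 0 and most long ones above, with Rpl14 among the exceptions (Spearman 0.56).

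In the values as deposited, thymus replicate 2 stood apart from the other libraries in these genes. It held the highest value of 51 of the 85 members (60%), among them 22 of the 42 large subunit genes, 21 of the 31 small subunit genes, 6 of the 8 copies and 1 of the 3 stalk genes. The same library held the highest value of 18.4% of all genes tested and of 25.4% of 3809 other genes with a mean of at least 1000. Members stood a median of 0.62 above their own mean over the 9 libraries on the log2 scale, with 0.50 for large and 0.82 for small subunit genes. In the same library that median was 0.17 for the other genes with a mean of at least 1000 and -0.26 for all genes tested. As a share of all values, mitochondrial genes included, members made up 2.56% in thymus replicate 2, 2.55% in liver replicate 3 and 2.46% in thymus replicate 3. The lowest values were most often in thymus replicate 1, for 26 members (30.6%), beside 23.7% of all genes tested and 20.5% of the other genes with a mean of at least 1000. Before any scaling to the library total, thymus replicate 2 was also the highest library in the summed values of 3 lists of related genes. The translation factors with TOP messages summed to 235532 in it and to at most 180943 in any other library, the genes for ribosomal RNA transcription to 18130 and at most 15111, and the regulators of TOP messages to 48451 and at most 46881. The ribosome assembly genes summed to 71635 in it, below the 76151 of spleen replicate 1. These sums were not scaled to the total of all values, which was also highest in thymus replicate 2, at 32037024. The next highest total was 28050303, in thymus replicate 1. For the translation factors and ribosomal RNA transcription, liver replicate 3 held 180943 and 13958 on a total of 23424109. For the regulators of TOP messages, thymus replicate 3 held 44331 on a total of 23172983. Relative to the total of all values, each of these was more than in thymus replicate 2.

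Rps14, a small subunit gene whose loss underlies the anaemia of a human chromosome 5 deletion, was the most marked of the small subunit genes. It was at 1224, 11642 and 2348 in thymus, 2423, 2849 and 4064 in liver, and 4058, 4151 and 3258 in spleen. Thymus replicate 2 was thus 2.80 times the next highest library, and thymus replicate 1 the lowest of all. Rps12, whose gene also holds 3 small nucleolar RNA genes, was at 900.2, 9076 and 2721 in thymus, 2398, 2255 and 3235 in liver, and 5703, 2936 and 3549 in spleen, with the same 2 libraries at the ends. Rps3, which sits where the messenger RNA enters the ribosome, was at 17292, 55280 and 22649 in thymus, 14863, 16203 and 18370 in liver, and 17415, 28646 and 24043 in spleen. Its value in thymus replicate 2 was 1.93 times the next highest, in a gene that shares no 75-base stretch with the transcripts of another annotated gene.

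Members were also split by how much sequence they share with other genes. The 40 members that share at least 50% of their sequence stood a median of 0.58 above their mean in thymus replicate 2, and the other 45 stood 0.67 above. Of those 45, the 3 that share none had a median of 1.34. The 30 members that host small nucleolar RNA genes stood 0.43 above and the other 55 stood 0.75 above. Of the large subunit, Rpl4 (1.02 times the mean of the other thymus libraries), Rpl13 (0.90) and Rpl15 (0.56) were not raised in it. Without thymus replicate 2, members whose thymus and spleen values did not overlap numbered 30 in place of 9, with 19 higher and 11 lower in spleen, beside 29.0% of all genes. For liver vs thymus there were then 22 in place of 11, with 11 higher and 11 lower, beside 27.8%. Counts of this kind can only grow when a library is left out, but the balance of directions also moved.

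**Figure D4:**
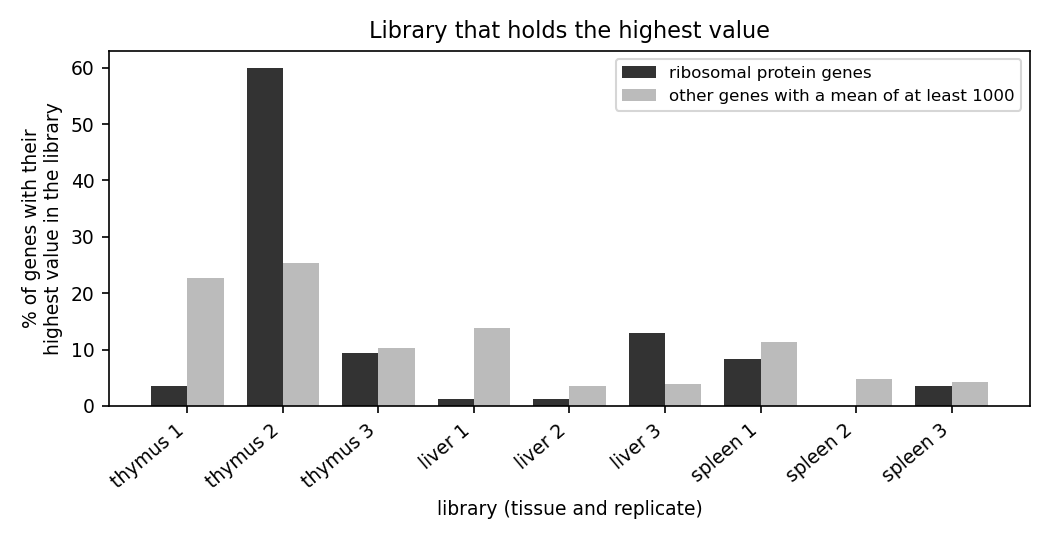
Percentage of genes whose highest value lies in each library, for the 85 ribosomal protein genes (dark bars) and for 3809 other genes with a mean value of at least 1000 (light bars). Thymus replicate 2 holds the highest value of 60% of the ribosomal protein genes and of 25.4% of the others.

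**Figure D5:**
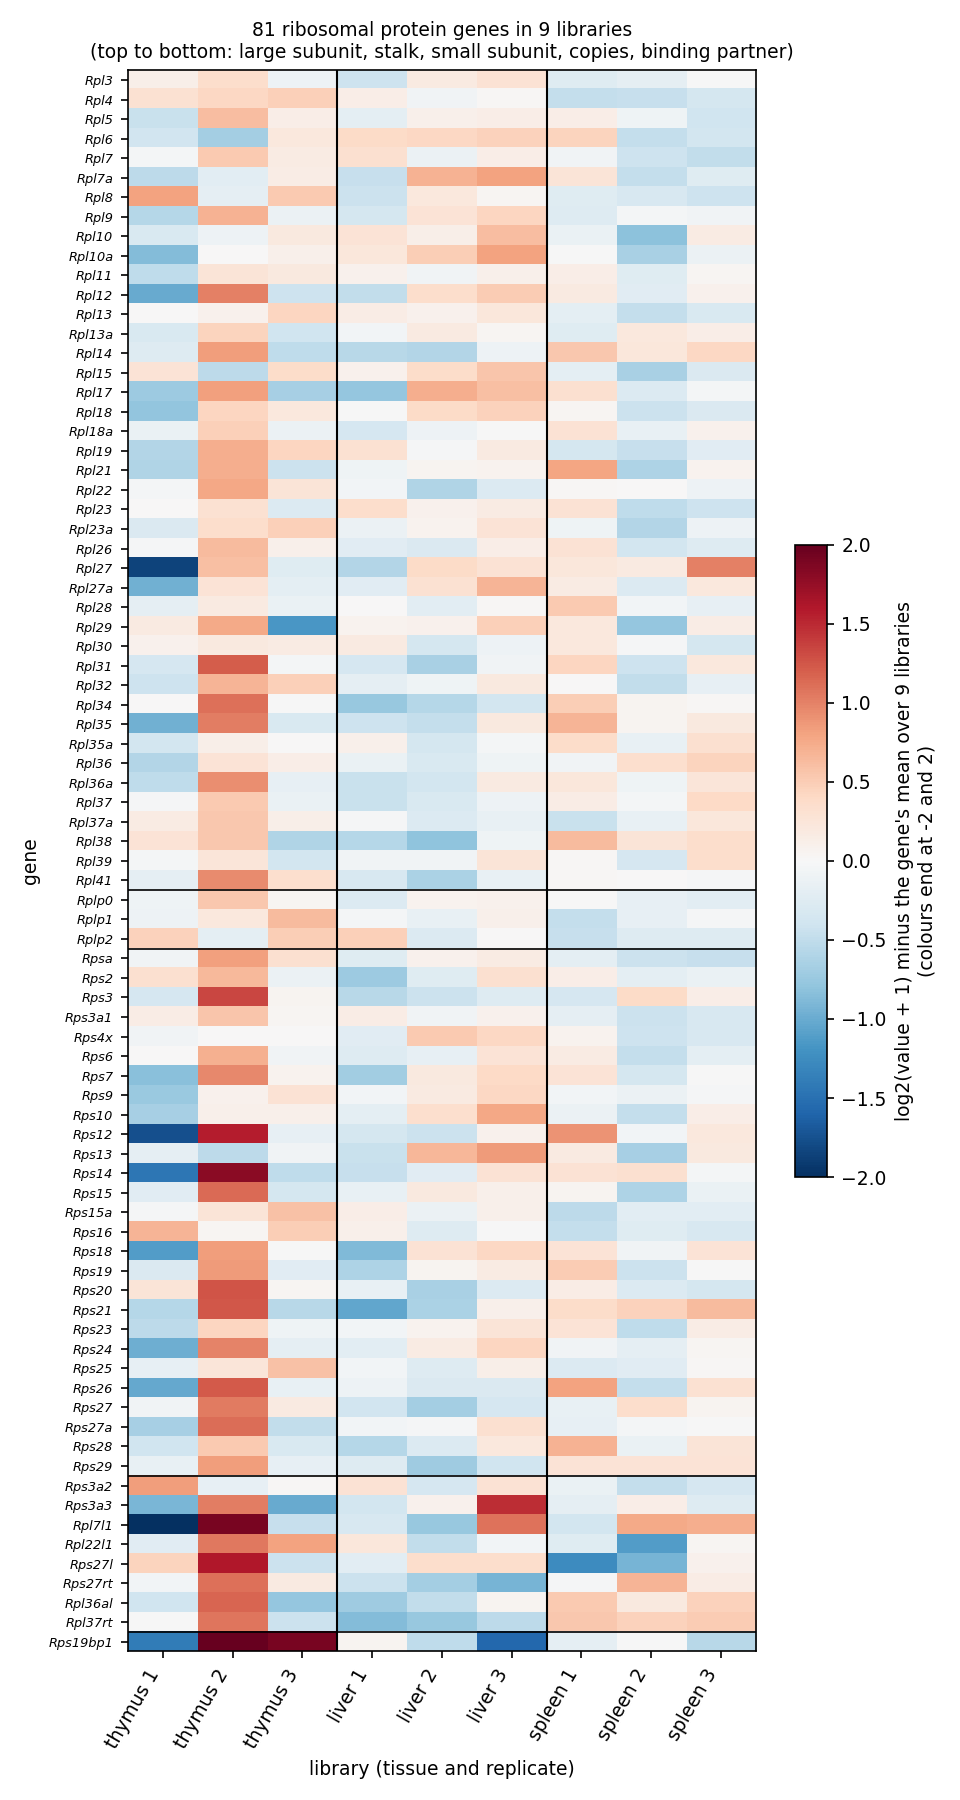
Deviation of log2(value + 1) from the mean of each gene over the 9 libraries, for 81 of the members (rows, grouped by role) in each library (columns, tissue and replicate); red is above and blue below the mean, and colours end at -2 and 2. The column of thymus replicate 2 is red for most genes and that of thymus replicate 1 has many of the blue cells.

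The 3 stalk genes encode the acidic proteins that call the elongation factors to the large subunit, with RPLP0 as their base. Rplp0 was at 5889, 9126 and 6448 in thymus, 5197, 6558 and 6608 in liver, and 6233, 5558 and 5376 in spleen, and the tissues overlapped. Rplp1 was at 5147, 6352 and 8537 in thymus, 5370, 4991 and 5905 in liver, and 3953, 4929 and 5406 in spleen, also with overlap. Rplp2 was at 13410, 8587 and 13821 in thymus, 13620, 8120 and 9836 in liver, and 7138, 8161 and 8158 in spleen. Its thymus values were all above the spleen values, while liver replicate 2 lay within the spleen range (spleen vs thymus -0.58, SE 0.27, limma-trend adjusted p = 0.412).

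The copies differed from the genes they resemble in level and in spread. Rpl22l1, the paralog of Rpl22, was at 827, 2017 and 1700 in thymus, 1131, 691 and 933 in liver, and 816, 448 and 995 in spleen. Rpl22 itself, which is needed for the development of alpha-beta T cells in the mouse, was at 7322, 12908 and 9004 in thymus, 7241, 4969 and 6226 in liver, and 7627, 7572 and 6976 in spleen. The copy amounted to 11.3% to 18.9% of Rpl22 in thymus, 13.9% to 15.6% in liver and 5.92% to 14.3% in spleen, ranges that overlap. Its fold change of spleen vs thymus was -0.99 (SE 0.57, adjusted p = 0.511).

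Rpl36al, an intronless copy of Rpl36a on chromosome 12, was at 1410, 4159 and 1087 in thymus, 1135, 1326 and 1939 in liver, and 2671, 2124 and 2564 in spleen. It reached 102% to 107% of the X-linked Rpl36a in spleen and 72.3% to 80.0% in liver, which did not overlap, and 57.2% to 103% in thymus. Rpl37rt, which shares 90.0% of its stretches with other genes, including Rpl37, was at 498, 1044 and 371 in thymus, 274, 293 and 346 in liver, and 723, 689 and 713 in spleen. It had the lowest liver vs spleen fold change of all members (-1.22, SE 0.69, limma-trend adjusted p = 1.0), with every spleen value above every liver value. It reached 8.04% to 8.32% of Rpl37 in liver, 12.1% to 15.8% in spleen and 9.01% to 16.2% in thymus. Rpl37 itself shares 25.8% of its stretches with other genes, so the level of the copy is the more uncertain of the pair.

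Rps27l, the copy of Rps27 known as a target of p53, was at 448, 992 and 242 in thymus, 284, 419 and 419 in liver, and 136, 171 and 346 in spleen, so spleen replicate 3 lay within the range of both other tissues (spleen vs thymus -1.25, SE 0.87, adjusted p = 0.598). Rpl7l1, a relative of Rpl7 that acts in ribosome assembly, had the widest spread within tissues of all members with a mean of at least 100 (SD 1.45). It was at 58.3, 1302 and 253 in thymus, 280.1, 205 and 745 in liver, and 271, 592 and 577 in spleen. Rps3a2 and Rps3a3 reached at most 0.863% and 0.405% of Rps3a1. Rps19bp1 was at 49.4, 632 and 494 in thymus, 136, 91.8 and 43.6 in liver, and 116, 131 and 88.7 in spleen. Thymus replicates 2 and 3 were above all liver and spleen libraries and thymus replicate 1 was among the lowest (liver vs thymus -1.60, SE 1.30, limma-trend adjusted p = 0.660).

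The 4 X-linked members, Rpl10, Rpl36a, Rpl39 and Rps4x, were compared with the Xist level of the libraries. In thymus replicate 2 they stood at 0.96, 2.39, 1.35 and 1.02 times the mean of the other thymus libraries. Rpl39 was at 5178, 6266 and 4096 in thymus, 5079, 5058 and 6329 in liver, and 5385, 4213 and 6777 in spleen. Rps4x was at 10613, 11216 and 11303 in thymus, 9542, 16053 and 14892 in liver, and 11799, 8422 and 8973 in spleen. The libraries numbered 2 were neither uniformly high nor uniformly low for either gene.

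The spread within tissues was smaller for the ribosomal protein genes than for other genes, a difference given here without a test. The median SD of log2(value + 1) within tissues was 0.40 for members, 0.56 for the 3809 other genes with a mean of at least 1000, and 1.31 for all genes tested. Neither set was matched to the members in level, whose median value ran from 4609 in thymus replicate 1 to 7871 in thymus replicate 2. What part level had in the difference was not tested. It was 0.54 for members in thymus, 0.25 in liver and 0.26 in spleen. The wider thymus spread was not particular to them. The other genes with a mean of at least 1000 had 0.66, 0.36 and 0.37 in that order, and all genes tested 1.34, 0.76 and 0.77. Of the members, Rpl4 had the smallest SD (0.08), and Rpl13 (0.16) and Rps3a1 (0.19) were also among the steadiest. Across the 85 genes, the Pearson correlation of log2(value + 1) was 0.87 to 0.94 between thymus libraries and 0.96 to 0.98 both between liver and between spleen libraries. Genes are not replicates, and these correlations are descriptions.

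The wider pathway held no gene past the threshold with limma-trend in any of the 3 comparisons, where 0.323%, 0.398% and 0.0150% of all genes were called in liver vs thymus, spleen vs thymus and liver vs spleen. The shares of all genes with an unadjusted p under 0.05 were 11.6%, 11.7% and 3.03% in that order. The list of ubiquitin-fused and associated subunits had 3 measured genes, none at an unadjusted p under 0.05. It includes Fau, which encodes a ribosomal protein fused to a ubiquitin-like sequence. Fau averaged 2020 ± 1400 (SD, n = 3) in the thymus, 2632 ± 700.3 in the liver and 3676 ± 1305 in the spleen. Of 15 translation factors whose messages carry the TOP motif, 2 had an unadjusted p under 0.05 in spleen vs thymus, 1 in liver vs spleen and 0 in liver vs thymus. Eef1a1, the factor that brings aminoacyl transfer RNA to the ribosome, averaged 69186 ± 12356 in the thymus, 58929 ± 2877 in the liver and 45304 ± 4842 in the spleen (spleen vs thymus -0.60, SE 0.16, adjusted p = 0.140). The median log2 fold change of these 15 was -0.08, -0.28 and 0.23 in liver vs thymus, spleen vs thymus and liver vs spleen.

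Of 26 ribosome assembly genes, 5, 2 and 0 had an unadjusted p under 0.05 in the same order of comparisons, and their medians were 0.03, 0.17 and -0.20. Ncl, Npm1 and Fbl, 3 abundant nucleolar proteins, had spleen vs thymus fold changes of 0.04 (SE 0.32), 0.30 (SE 0.27) and 1.05 (SE 0.67). Of 12 genes for the transcription of ribosomal RNA, 1 was under 0.05 unadjusted in each comparison. Myc, which drives ribosome production, averaged 2951 ± 757 in the thymus, 1820 ± 279 in the liver and 1808 ± 1276 in the spleen. Of 17 regulators of TOP messages, 2, 1 and 0 were under 0.05 unadjusted. Larp1 averaged 5606 ± 992 in the thymus, 4963 ± 263 in the liver and 4448 ± 983 in the spleen, and Mtor averaged 1263 ± 817, 1779 ± 329 and 1574 ± 226 in that order. Mlst8, a subunit of the mTOR complexes that was chosen after its values were seen, was at 682, 811 and 1115 in thymus, 140.0, 109 and 159 in liver, and 84.9, 257 and 80.9 in spleen. Every thymus value lay above every value of the other tissues, but neither fold change passed the test, at -2.66 (SE 0.94, adjusted p = 0.294) in liver vs thymus and -2.80 (SE 0.94, adjusted p = 0.257) in spleen vs thymus with limma-trend. With edgeR and DESeq2 these lists were not counted.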

How the data were processed

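RNA was measured in 9 libraries, 3 from each of 3 tissues. Per the labels' protocols, libraries were built from total RNA with an ultralow-input kit and sequenced for 76 cycles. The submitters' processing notes name Trimmomatic 0.33, TopHat2 2.1.0, HTSeq 0.6.1, edgeR and build mm10. The authors deposited 1 signal value per gene and library, a normalised read count, in 1 table, and its scaling is not given in the sources used here. Of 15737 low values 93.4% were whole multiples of 1 read within 0.1, from 72.7% in liver replicate 3 to 100.0%, which gave the reads. These multiples cover counting error only. The column of thymus replicate 2 has a letter in its prefix that the labels do not explain.

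Symbols matched 13359 of 14004 genes. limma-trend (limma 3.58.1, R 4.3.3) was fitted on log2(value + 1) to the 13309 genes that reached a value of 1 in 3 or more libraries, with a term for tissue and no block, and tests were two-sided with a threshold of 0.05 after adjustment. Fold changes on this scale understate low genes. edgeR 4.0.16 and DESeq2 1.42.0 on recovered reads were alternatives. The steps were tested on simulated data. GENCODE annotation of GRCm38 gave coordinates and lengths. The members and lists were chosen with earlier results of these data known. Members named were those past the threshold, the 4 highest and 4 lowest fold changes of each comparison, the 4 with the largest and smallest spread, the 4 highest, the copies and the stalk genes. Some genes that this rule names are not reported here.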

Additional observations from a re-analysis of the deposited data

How the results depend on the processing

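The call of 1 member in spleen vs thymus, Rpl4, became 0 with equal totals outside the mitochondrial genes, over only the 2 tissues compared, with edgeR on recovered reads and over the libraries numbered 1 and 3. With 1 replicate left out at a time it was 0 or 1. In the test of any tissue the count of 0 became 1, Rpl4, with TMM scaling, array weights and DESeq2. No alternative called a member in liver vs thymus or liver vs spleen. Counts over all genes, 43, 53, 2 and 46 in liver vs thymus, spleen vs thymus, liver vs spleen and any tissue, were 478, 539, 28 and 376 with DESeq2, 17, 32, 2 and 31 with edgeR, 12, 16 and 6 over only the 2 tissues compared, and 12, 19, 0 and 16 over the libraries numbered 1 and 3. TMM scaling gave 89 in spleen vs thymus and array weights 18 in liver vs spleen and 74 in any tissue. With 1 replicate left out they ran from 8 to 151, 9 to 140, 0 to 3 and 18 to 74. With mitochondrial genes in the total, the summed share was 2.22% in thymus, 2.17% in liver and 2.07% in spleen, and without the 3 highest members it was 2.66% in spleen. The large to small subunit ratio of spleen was 1.57 without them. The spleen vs thymus fold change turned for Rpl7l1 (-0.14 with edgeR, -0.19 with DESeq2, -0.34 to 1.89 with 1 replicate left out) and Rps12 (-0.03, -0.08, and -0.35 to 1.32). Neither was past the threshold, and the cause was not tested. The counts of members without overlap were 12 to 25, 11 to 30 and 25 to 40 with 1 replicate left out, where fewer samples raise them by construction; these alternatives, the subunit ratio and the length correlation were added after seeing the data. Over the libraries numbered 1 and 3 the member medians were 0.12 and 0.25 against thymus, beside 0.16 and 0.25 for all genes.

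Whether replicate numbers pair the samples could not be told. Same-numbered libraries of different tissues had correlations of their deviations of 0.00 to 0.09, against -0.09 to 0.05 for different numbers. Between liver and spleen every library correlated best with its own number, but not every library did in the comparisons with thymus. The libraries numbered 2 also shared high Xist in all 3 tissues. With the replicate block the members called were 0, 1, 0 and 0 and the counts over all genes 42, 55, 4 and 45. Depth limited liver replicate 3 most, and with 3 libraries a tissue a p above the threshold does not show equal levels.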
